A study of Homo sapiens with 8 samples.

Results

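The DNAJ proteins, also called HSP40 or J-domain proteins, are the co-chaperones of HSP70. Their genes were taken as every row of the deposited expression tables whose gene name is DNAJA, DNAJB or DNAJC followed by a number, which gave 43 of 60671 genes, 4 of class A, 13 of class B and 26 of class C. RNA sequencing covered MM.1S cells, an established human multiple myeloma cell line, in 4 groups of 2 samples, all harvested after 12 h. The groups received vehicle, FeAc, bortezomib, or bortezomib plus FeAc. FeAc, an iron salt, served to load the cells with iron (300 μM against vehicle), and bortezomib is a proteasome inhibitor used against myeloma, whose dose in these samples is not given in the sources used here. All groups share 1 cell line, so they describe 1 genetic background.

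A DNAJ protein binds an unfolded client, hands it to HSP70 and, through its J domain, stimulates HSP70 to split ATP and close on the client. Class A and class B proteins are general co-chaperones of the cytosol, the mitochondria or the endoplasmic reticulum (ER), while class C proteins keep the J domain and otherwise differ widely, serving protein import, splicing, endocytosis or ribosomes. Plasma cells and the myeloma cells derived from them make large amounts of secreted protein, which loads the ER chaperones and the proteasome, and heat shock and proteasome inhibition are known inducers of the cytosolic chaperone genes.

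The gene rule used only names, so the coding sequences were searched for the 3 codons of histidine, proline and aspartate that form the HSP70-activating loop of the J domain. A main coding sequence was found in GENCODE release 29 for 42 of the 43 genes, and 41 of them held the 3 codons in frame, each exactly 1 time. Among 19650 coding sequences in all, 5.57% held them. DNAJB13 was the member without a match, and DNAJB3 had no main coding sequence there. The stretches below are coding strands, with the 3 codons in capitals, for 2 members with large values with bortezomib, 1 ER member and 2 members whose J domain lies far from the start. The codon for histidine is number 32 in DNAJB1, number 34 in DNAJA1 and number 54 in DNAJB9, and number 422 in DNAJC3 and number 877 in DNAJC6.
DNAJB1: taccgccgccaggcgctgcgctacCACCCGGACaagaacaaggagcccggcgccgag
DNAJA1: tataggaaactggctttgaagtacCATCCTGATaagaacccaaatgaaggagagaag
DNAJB9: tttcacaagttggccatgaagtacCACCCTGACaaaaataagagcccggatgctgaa
DNAJC3: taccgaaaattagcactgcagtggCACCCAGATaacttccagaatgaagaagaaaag
DNAJC6: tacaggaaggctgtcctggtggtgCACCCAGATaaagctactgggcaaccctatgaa

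Values are TPM, a length-scaled share of the transcripts in a sample. The totals of the 8 samples differed by 0.182% of the lowest, and between 13020 and 13770 genes reached 1 TPM in a sample. Depth is unknown, since TPM hold no counts. Mitochondrially encoded RNA took 8.16% and 14.0% of the TPM with vehicle, 14.3% and 11.4% with FeAc, 5.49% and 8.23% with bortezomib, and 2.99% and 10.1% with bortezomib plus FeAc. All 9 plasma cell markers reached 1 TPM in every sample, with sums of 7473 to 9811 TPM without bortezomib and 4042 to 5652 TPM with it, while 12 of 16 markers of other marrow cells stayed below 1 TPM in every sample and LUM and CD3D, of stromal and T cells, were listed at 0 throughout. COL1A1, the collagen gene of stromal cells, was called higher in both bortezomib comparisons, at 0.69 to 1.00 TPM without bortezomib and 3.02 to 4.89 TPM with it, and HBB, a globin gene, was called lower in bortezomib against vehicle, at 9.70 to 13.5 TPM without bortezomib and 1.62 to 5.18 TPM with it. The part of these genes' cells in the results was not tested. The summed level of those 16 was between 12.1 and 15.9 TPM with vehicle, 12.8 and 14.2 TPM with FeAc, 7.67 and 12.0 TPM with bortezomib, and 9.42 and 9.73 TPM with bortezomib plus FeAc.

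A gene was tested where the mean of at least 1 group reached 1 TPM, which took 14812 genes and 37 of the 43 DNAJ genes. The 6 members below this level were DNAJB7, DNAJB13, DNAJC22 and DNAJC28, between 0 and 0.74 TPM, and DNAJB3 and DNAJB8, listed at 0 in every sample. DNAJB3 is annotated as a processed pseudogene in GENCODE. Tests used limma-trend on log2(TPM + 1), and calls required a fold change over 1.5 together with an adjusted p under 0.05. Log2 fold changes are differences on that scale, which understates the change of low genes. Vehicle and FeAc are in 1 deposited table and the bortezomib groups in another, so an effect of bortezomib and a difference between the tables cannot be told apart in comparisons across them.

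With bortezomib against vehicle, 8 of 14 tested DNAJ genes of the cytosol and nucleus were called higher, led by DNAJB1. Of the 11 ER genes 1 was called higher and 1 lower, and of the 6 mitochondrial genes 0 and 1. The difference between compartments was not tested. With bortezomib against vehicle, 10 of the 37 genes (27.0%) were called higher and 2 (5.41%) lower, where 6.27% of all tested genes were called higher and 5.89% lower. In bortezomib plus FeAc against FeAc, 9 (24.3%) were called higher and 3 (8.11%) lower, where 4.94% of all tested genes were called higher and 8.86% lower. The median log2 fold change of the members was 0.12 and 0.22 in these comparisons, beside -0.06 and -0.17 over all tested genes. Thus the share called higher was above the background and the share called lower was near it. The comparisons share no sample but share 1 estimate of the spread. Across them, 9 members were called higher in both (DNAJA1, DNAJA4, DNAJB1, DNAJB2, DNAJB4, DNAJB6, DNAJC2, DNAJC6 and DNAJC7) and 2 lower in both (DNAJC10 and DNAJC19). The counts depended on single libraries, for the members as for all tested genes. Without 1 sample of vehicle, FeAc or bortezomib alone, fewer members and fewer of all tested genes were called in each comparison.

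**Figure D1:**
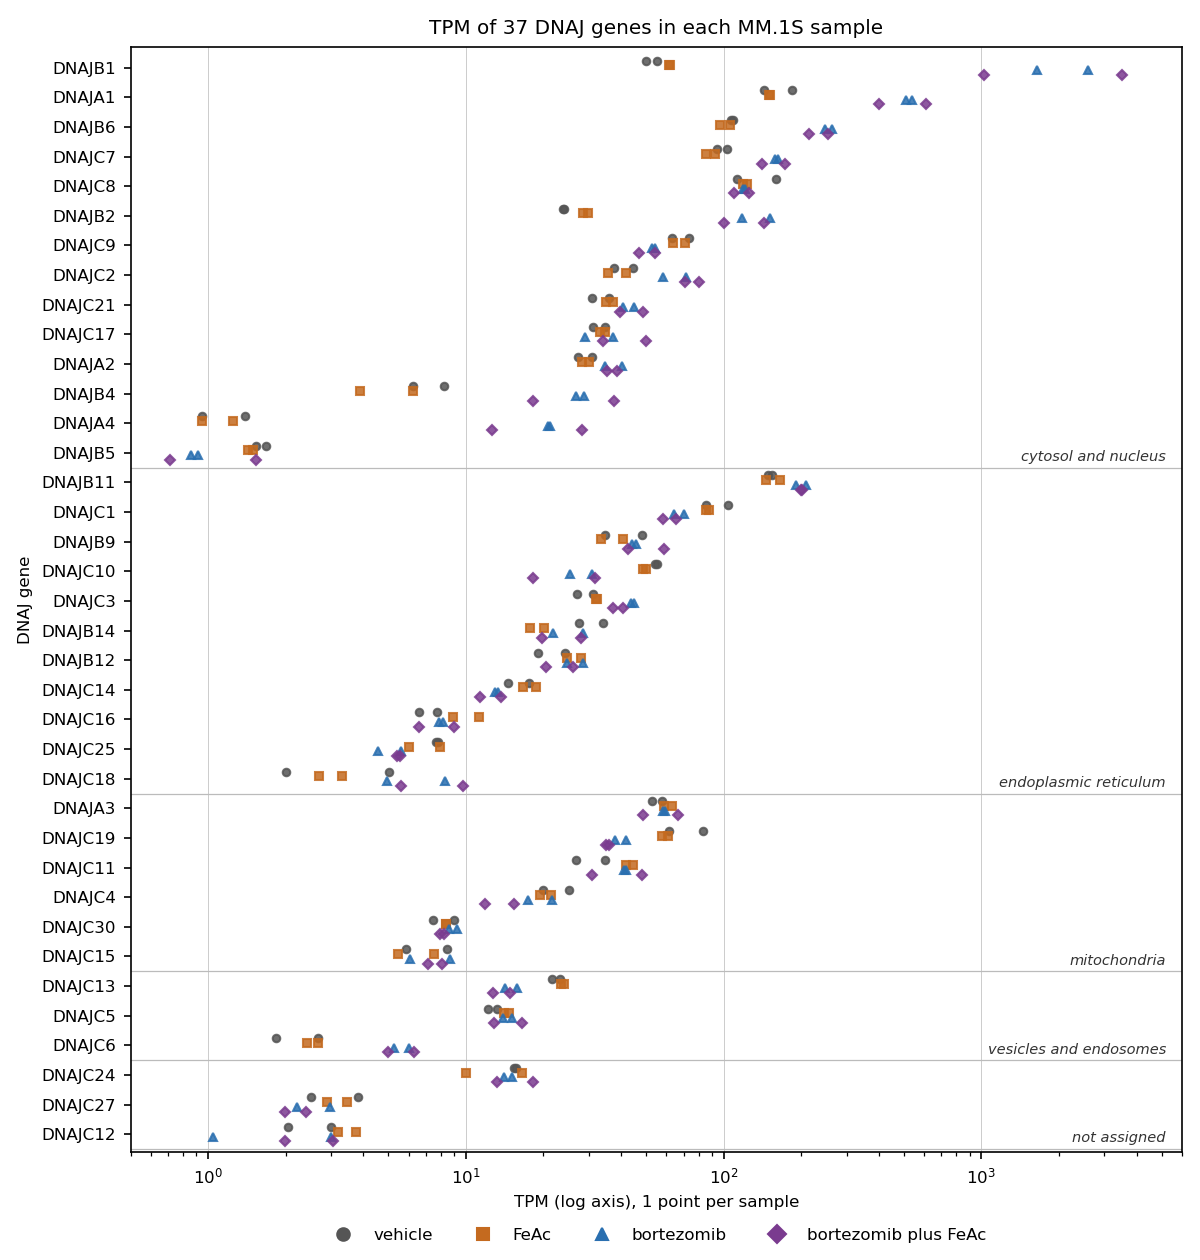
TPM of the 37 tested DNAJ genes on a log axis, 1 point per sample, 2 samples in each of 4 groups, grouped by compartment and ordered by mean level. The bortezomib samples (triangles and diamonds) stand to the right of the others for DNAJB1, DNAJA1, DNAJB2, DNAJB4, DNAJB6 and DNAJA4, and the groups lie close together for most ER and mitochondrial members.

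DNAJB1 (ENSG00000132002, chromosome 19, 14514770 to 14529770, minus strand, GRCh38) encodes the main inducible HSP40 of the cytosol and nucleus. Its level was 55.3 and 49.98 TPM with vehicle and 61.8 and 61.5 TPM with FeAc. With bortezomib it was 2593 and 1641 TPM, and with bortezomib plus FeAc 3506 and 1021 TPM. Every bortezomib sample lay far above every sample without it, while the samples with both compounds enclosed those with bortezomib alone. Bortezomib against vehicle gave 5.27 on the log2 scale (standard error 0.50, adjusted p = 0.00205 from limma), a 38.5-fold difference that ranked 6 among all tested genes. In bortezomib plus FeAc against FeAc it was 4.92 (standard error 0.50, adjusted p = 0.00389 from limma), 30.2-fold, and ranked 5.

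DNAJA1 (chromosome 9, 33025211 to 33039907, plus strand) encodes the abundant class A co-chaperone of HSC70. It was 185 and 143 TPM with vehicle, 150 and 151 TPM with FeAc, 536 and 510 TPM with bortezomib, and 611 and 400 TPM with bortezomib plus FeAc. The lowest bortezomib sample was above the highest of the others, with log2 fold changes of 1.68 and 1.71 (standard error 0.22 each, adjusted p = 0.00567 and 0.00731 from limma). Because DNAJB1 moved further than DNAJA1, their order turned over: the ratio of DNAJB1 to DNAJA1 TPM was between 0.299 and 0.412 in samples without bortezomib and between 2.56 and 5.74 in those with it.

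DNAJA4 (chromosome 15, 78264086 to 78282196, plus strand), a class A relative of DNAJA1, was low without bortezomib, at 1.39 and 0.95 TPM with vehicle and 1.25 and 0.95 TPM with FeAc. It was 21.3 and 20.7 TPM with bortezomib and 28.3 and 12.6 TPM with both compounds. The groups did not overlap, and the log2 fold changes were 3.35 and 3.25 (standard error 0.34 each, adjusted p = 0.00247 and 0.00403 from limma). The ratio of mean TPM was 18.0 and 18.6, larger than the 10.2-fold and 9.53-fold differences on the fitted scale, which adds 1 TPM before the logarithm.

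DNAJB2, DNAJB4 and DNAJB6, class B genes of the cytosol, rose as well. DNAJB2 (chromosome 2, 219279267 to 219286900, plus strand), whose protein carries ubiquitin-interacting motifs and passes clients to the proteasome, was 23.7 and 24.03 TPM with vehicle, 29.9 and 28.4 TPM with FeAc, 151 and 117 TPM with bortezomib, and 144 and 100.48 TPM with both. It had the smallest adjusted p of the family with bortezomib against vehicle (0.00166 from limma), at 2.43 on the log2 scale (standard error 0.20), and 2.01 in bortezomib plus FeAc against FeAc. DNAJB6 (chromosome 7, 157335381 to 157417439, plus strand), a suppressor of protein aggregation, was 108 and 107 TPM with vehicle, 106 and 96.9 TPM with FeAc, 262 and 246 TPM with bortezomib, and 253 and 214 TPM with both. DNAJB6 thus stood among the more abundant members without bortezomib and was higher with it, by log2 fold changes of 1.23 and 1.19. DNAJB4 (chromosome 1, 77979175 to 78017964, plus strand), a close relative of DNAJB1, was 8.24 and 6.26 TPM with vehicle, 6.24 and 3.87 TPM with FeAc, 28.8 and 26.8 TPM with bortezomib, and 37.5 and 18.1 TPM with both, with log2 fold changes of 1.81 and 2.19. Its call against vehicle (adjusted p = 0.0166 from limma) was lost without a filter on low values.

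Of the 6 class C members of the cytosol and nucleus, DNAJC7 and DNAJC2 rose. DNAJC7, which binds both HSP70 and HSP90, was 103 and 94.0 TPM with vehicle, 85.7 and 93.0 TPM with FeAc, 163 and 158 TPM with bortezomib, and 173 and 141 TPM with both (log2 fold change 0.70 and 0.80). DNAJC2, the ribosome-associated J protein, was 44.3 and 37.5 TPM with vehicle, 41.8 and 35.5 TPM with FeAc, 58.4 and 71.4 TPM with bortezomib, and 80.5 and 70.8 TPM with both (0.65 and 0.95). DNAJC2 was close to the threshold with bortezomib against vehicle (adjusted p = 0.0472 from limma). That call was lost with median-of-ratios scaling, with the replicate block and without a variance trend. It was also lost without a filter on low values, without mitochondrially encoded genes and with only the 4 samples compared. The call of DNAJC7 against vehicle (adjusted p = 0.0258 from limma) was lost without a filter on low values. The remaining cytosolic and nuclear genes (DNAJA2, DNAJB5, DNAJC8, DNAJC9, DNAJC17 and DNAJC21) were not called in either comparison, with log2 fold changes between -0.47 and 0.36.

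**Figure D2:**
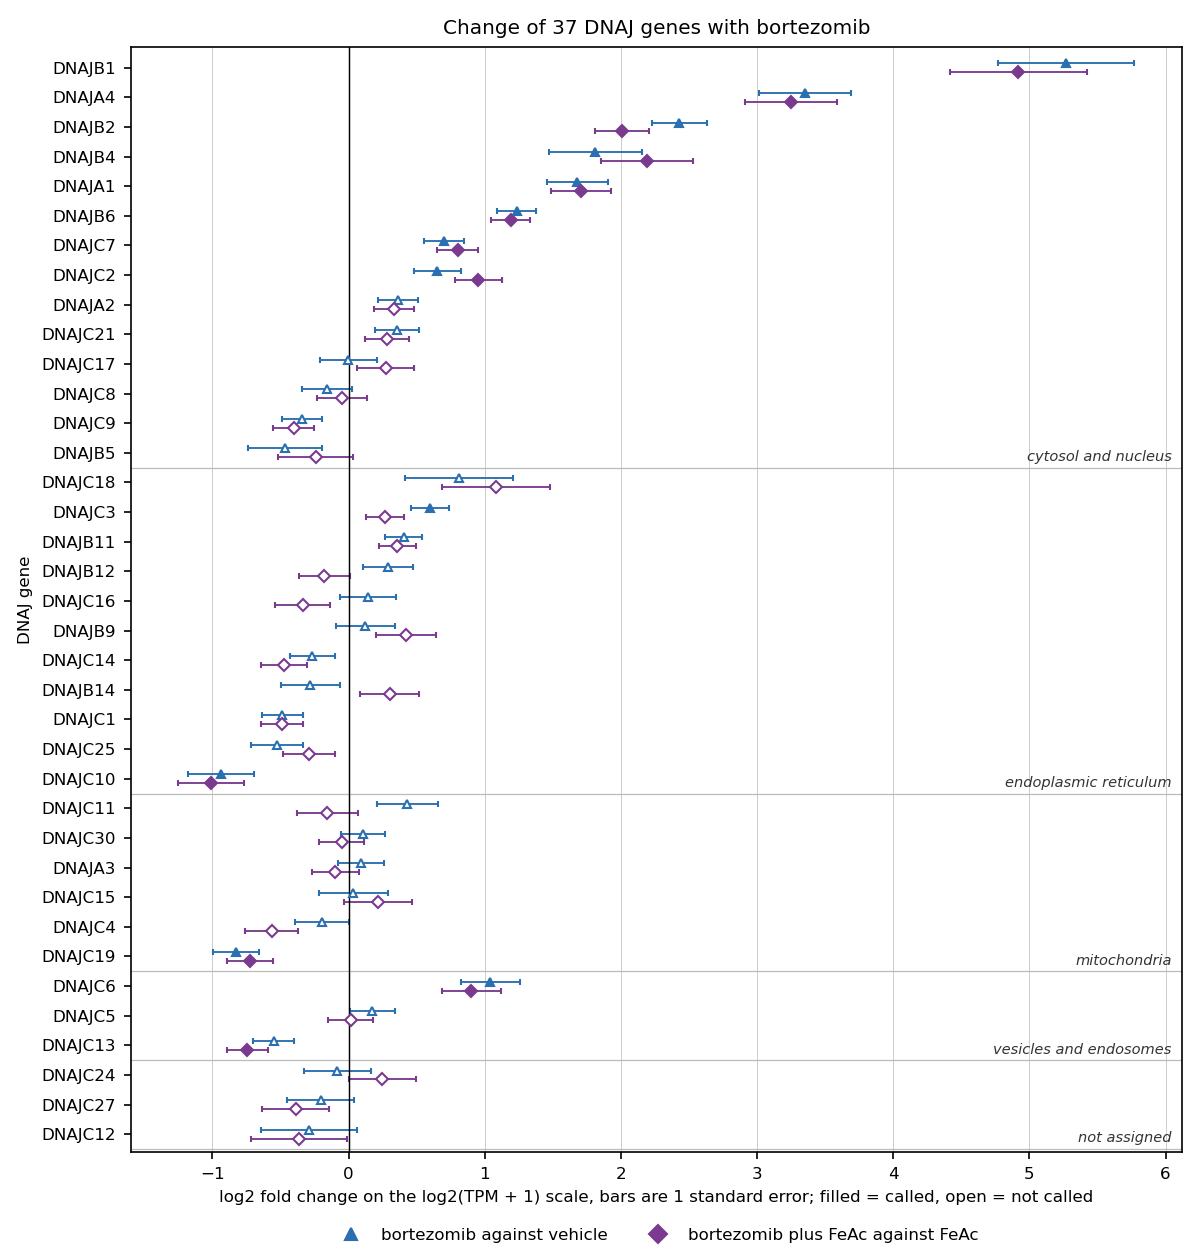
Log2 fold changes of the 37 tested genes on the log2(TPM + 1) scale with 1 standard error, for bortezomib against vehicle (triangles) and bortezomib plus FeAc against FeAc (diamonds), grouped by compartment, with called genes filled. Of 14 genes of the cytosol and nucleus, 8 are filled and above 0 in each comparison, led by DNAJB1 at 5.27 and 4.92.

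By compartment, 8 of 14 tested genes of the cytosol and nucleus were called higher and 0 lower with bortezomib against vehicle, and 8 and 0 in bortezomib plus FeAc against FeAc, by limma. Over all tested genes the shares were 6.27% higher and 5.89% lower in the first comparison and 4.94% and 8.86% in the second. The difference between compartments was not tested. Of 11 tested ER genes, 1 was called higher and 1 lower in the first comparison and 0 higher and 1 lower in the second. Of 6 mitochondrial genes, 0 were called higher and 1 lower in each. By class, 2 of 4 class A, 4 of 9 class B and 4 of 24 class C genes were called higher with bortezomib against vehicle, and 2, 4 and 3 in the other comparison. The 2 class C genes called lower in the first comparison and the 3 in the second are in lists other than that of the cytosol and nucleus.

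DNAJB9, which binds the ER stress sensor IRE1 and is a known target of the unfolded protein response, did not follow DNAJB1. It was 48.3 and 34.7 TPM with vehicle, 33.5 and 40.7 TPM with FeAc, 45.5 and 43.9 TPM with bortezomib, and 58.6 and 42.4 TPM with both. The bortezomib samples lay within the range of the vehicle samples, and the difference was 0.12 on the log2 scale (standard error 0.22, adjusted p = 0.746 from limma). Both samples with bortezomib plus FeAc were above both FeAc samples, at 0.42 (standard error 0.22, adjusted p = 0.225 from limma).

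Among the other ER members, DNAJB11, the co-factor of BiP in the lumen, had the highest mean level. It was 149 and 154 TPM with vehicle, 165 and 147 TPM with FeAc, 192 and 210 TPM with bortezomib, and 200.4 and 199 TPM with both (log2 fold change 0.40 and 0.36, adjusted p = 0.0922 and 0.114 from limma). Its bortezomib samples were above the others without passing the threshold. DNAJC1, an ER membrane protein, was between 85.4 and 104 TPM without bortezomib and between 57.9 and 70.5 TPM with it (-0.49 in both comparisons, adjusted p = 0.0766 and 0.0702 from limma).

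DNAJC3, the ER protein P58IPK that also restrains the kinase PERK, was called higher with bortezomib against vehicle. Its levels were 27.0 and 31.1 TPM with vehicle, 32.4 and 32.0 TPM with FeAc, 43.5 and 45.0 TPM with bortezomib, and 37.1 and 40.7 TPM with both. The difference was 0.60 on the log2 scale (standard error 0.14, adjusted p = 0.0332 by limma) without FeAc and 0.27 (standard error 0.14, adjusted p = 0.227) with it, and the difference between these 2 effects did not pass the test (log2 -0.33, standard error 0.20, adjusted p = 0.983 from limma). DNAJC10, a disulfide reductase of the ER that helps degrade misfolded proteins, was 54.9 and 54.3 TPM with vehicle, 50.1 and 48.7 TPM with FeAc, 25.5 and 30.9 TPM with bortezomib, and 18.2 and 31.8 TPM with both. It was lower in all bortezomib samples, with log2 fold changes of -0.94 and -1.01 (standard error 0.24 each, adjusted p = 0.0452 and 0.0357 from limma). Both calls of DNAJC10 were lost without a filter on low values or without a variance trend, and the call of DNAJC3 without a variance trend or without mitochondrially encoded genes.

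In the mitochondria, DNAJC19, a J protein of the protein import motor at the inner membrane, was called lower. It was 83.2 and 61.3 TPM with vehicle, 57.5 and 60.8 TPM with FeAc, 37.9 and 41.9 TPM with bortezomib, and 36.0 and 34.8 TPM with both (log2 fold change -0.83 and -0.72, adjusted p = 0.0229 and 0.0339 from limma). Both calls of DNAJC19 were lost with median-of-ratios scaling and without a filter on low values. The 1 vehicle sample at 83.2 TPM stood above the other 3 samples without bortezomib. DNAJA3, the class A protein of the matrix, was between 48.7 and 66.3 TPM over all samples and was not called (0.09 and -0.10). A pseudogene named DNAJC19P5 was listed at 4.08, 1.72, 0.79 and 1.40 TPM in the bortezomib samples and at most 0.80 TPM in the others, and reads shared between the 2 could be split either way.

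Of the 3 vesicle genes, DNAJC6 was called higher in both bortezomib comparisons and DNAJC13 lower in 1. DNAJC6, the auxilin that uncoats clathrin-coated vesicles, was 1.84 and 2.66 TPM with vehicle, 2.41 and 2.67 TPM with FeAc, 6.03 and 5.27 TPM with bortezomib, and 6.29 and 5.00 TPM with both (log2 fold change 1.04 and 0.90, adjusted p = 0.0243 and 0.0362 from limma). Both calls of DNAJC6 were lost without a filter on low values. The call against FeAc was also lost with a mean of at least 5 TPM, with the replicate block and without mitochondrially encoded genes. DNAJC13, an endosomal protein, was 21.5 and 23.1 TPM with vehicle, 23.97 and 23.4 TPM with FeAc, 14.1 and 15.8 TPM with bortezomib, and 12.7 and 14.8 TPM with both. It was called lower in bortezomib plus FeAc against FeAc (-0.74, adjusted p = 0.0228) and narrowly missed the threshold in bortezomib against vehicle (-0.55, adjusted p = 0.0523), by limma, and the call was lost with median-of-ratios scaling. DNAJC5, the cysteine string protein of synaptic vesicles, was between 12.2 and 16.5 TPM in every sample and was not called.

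Among the genes without an assigned compartment, 3 were tested and 0 called by limma. DNAJC24, of the diphthamide pathway, was between 10.0 and 18.1 TPM, DNAJC27 between 1.99 and 3.80 TPM and DNAJC12 between 1.04 and 3.73 TPM over all samples. Their smallest adjusted p with bortezomib was 0.311, for DNAJC27. An ER member with a larger but scattered difference was DNAJC18, at 5.03 and 2.0 TPM with vehicle and 4.96 and 8.33 TPM with bortezomib (log2 fold change 0.81, adjusted p = 0.213 from limma).

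Summed over the 43 genes, the family held 1587 and 1434 TPM with vehicle, 1491 and 1446 TPM with FeAc, 4776 and 3805 TPM with bortezomib, and 5777 and 2964 TPM with both compounds. DNAJB1 made up 3.48% and 3.49% of this sum with vehicle, 54.3% and 43.1% with bortezomib, and 60.7% and 34.5% with bortezomib plus FeAc. Without DNAJB1 and DNAJA1 the sum was 1346 and 1241 TPM with vehicle, 1648 and 1654 TPM with bortezomib, and 1661 and 1543 TPM with both. The 12 ER genes summed to between 435 and 491 TPM in all 8 samples, and the 7 mitochondrial genes to between 144 and 204 TPM.

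**Figure D3:**
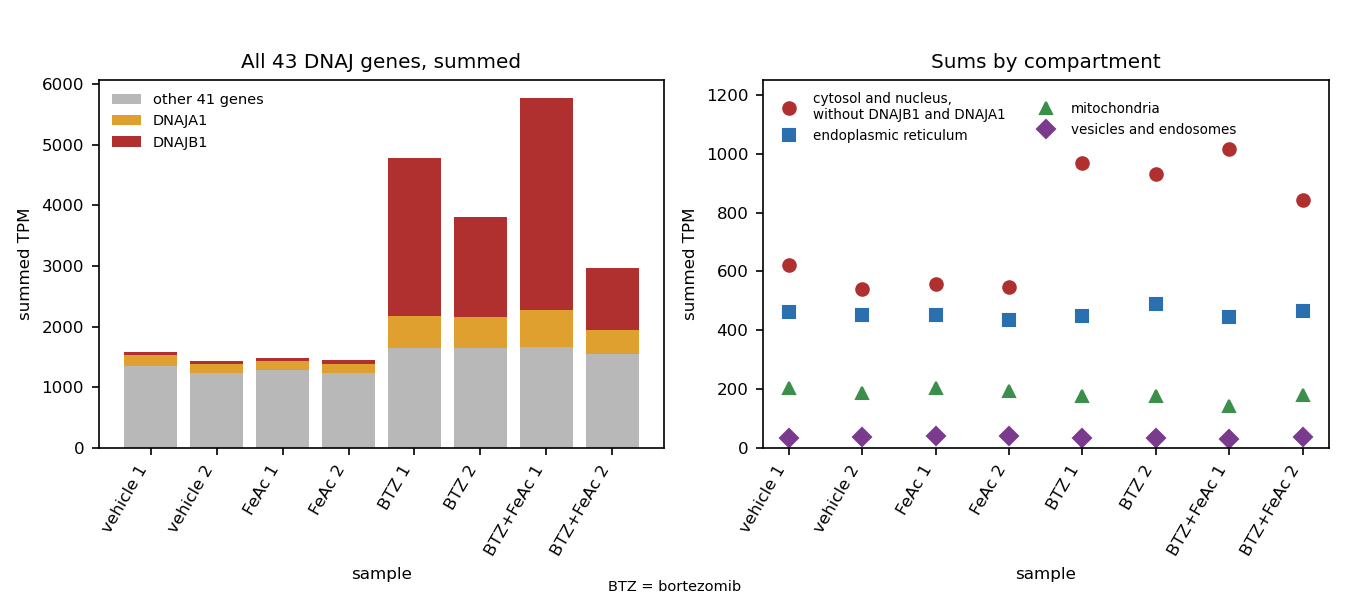
Left, summed TPM of all 43 DNAJ genes in each sample, with DNAJB1 and DNAJA1 in colour and the other 41 genes in grey. Right, summed TPM by compartment in each sample. DNAJB1 makes up 54.3% and 43.1% of the bars with bortezomib, and the ER sum stays between 435 and 491 TPM.

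The 4 samples with bortezomib also differed among themselves. DNAJB1 was 3506, 2593, 1641 and 1021 TPM in the order bortezomib plus FeAc replicate 1, bortezomib replicates 1 and 2, and bortezomib plus FeAc replicate 2. This order was taken from DNAJB1 after its values were seen. Of the other 36 tested members, 8 (22.2%) had it exactly, beside 5.34% of all tested genes. They were DNAJA1, DNAJA4, DNAJB4, DNAJC6 and DNAJC7, which are 5 of the other 9 members called higher with bortezomib against vehicle, and DNAJB9, DNAJC8 and DNAJC24, which were not called. DNAJB2, DNAJB6, DNAJC2 and DNAJC3, called higher as well, did not have it. The order was not particular to the family. It was held by 4 of 13 tested HSP70 and HSP110 genes (30.8%) and 3 of 13 nucleotide exchange factors and HSP70 tail binders (23.1%). Of 8 regulators of heat shock and unfolded protein responses 2 (25.0%) had it, and of 4 J proteins with other symbols 0. The mitochondrially encoded share ran the opposite way, at 2.99%, 5.49%, 8.23% and 10.1%, and its part in the levels was not tested. Both samples with bortezomib plus FeAc stand at the ends of this order.

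**Figure D4:**
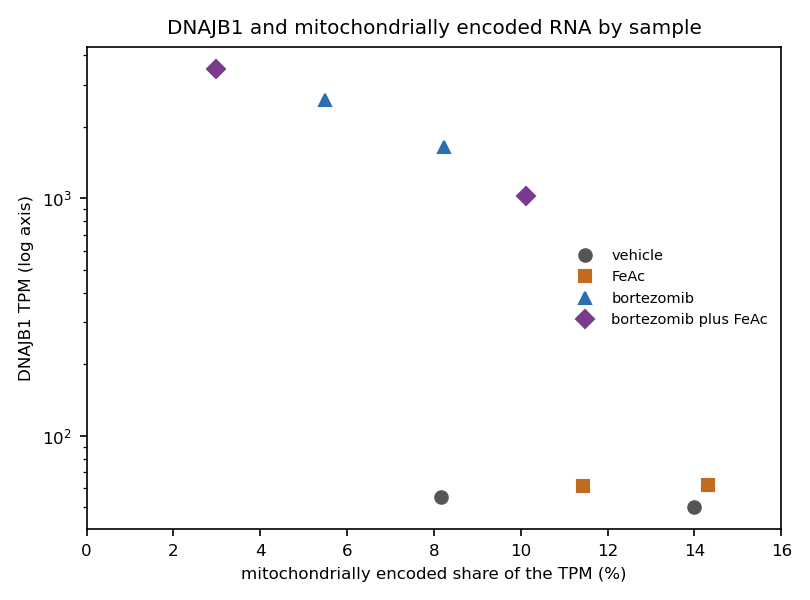
DNAJB1 TPM on a log axis against the mitochondrially encoded share of the TPM in percent, 1 point per sample. The 4 bortezomib samples run from 3506 TPM at 2.99% to 1021 TPM at 10.1%, and the 4 samples without bortezomib lie between 49.98 and 61.8 TPM over a share of 8.16% to 14.3%.

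FeAc was not accompanied by a called change of any DNAJ gene, with or without bortezomib. In FeAc against vehicle 0 of 37 members were called, where 0.00675% of all tested genes were called higher and 0% lower, and 1 member had an unadjusted p under 0.05 beside 3.42% of all genes (limma). In bortezomib plus FeAc against bortezomib 0 members were called, where 0% of all genes were called in either direction, and 1 member had an unadjusted p under 0.05 beside 2.52% of all genes. The difference between the FeAc effects with and without bortezomib called 0 members, where 0% of all genes were called higher and 0.00675% lower, and 0 members had an unadjusted p under 0.05 beside 2.35% of all genes. At the same thresholds of fold change and adjusted p, the paper's own analysis of FeAc-treated MM.1S cells reported many more changed genes. The cause of this difference was not tested. The counts here limit what was detectable with 2 samples a group and do not show that FeAc left the genes alike.

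The member with the smallest p in FeAc against vehicle was DNAJB14, an ER membrane protein, at 27.4 and 34.1 TPM with vehicle and 17.8 and 20.1 TPM with FeAc. Its groups did not overlap (log2 fold change -0.67, standard error 0.22, adjusted p = 0.951 from limma). With bortezomib the same gene was 21.9 and 28.6 TPM and, with FeAc added, 19.8 and 27.9 TPM, so those groups overlapped. DNAJC4, a mitochondrial member, had the smallest p in bortezomib plus FeAc against bortezomib, at 11.8 and 15.3 TPM against 21.7 and 17.4 TPM (-0.50, standard error 0.20, adjusted p = 1 from limma). DNAJC11, of the mitochondrial contact sites, was 26.8 and 34.7 TPM with vehicle and 44.3 and 41.6 TPM with FeAc (0.48, standard error 0.22, adjusted p = 0.951 from limma).

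In FeAc against vehicle both FeAc samples were above both vehicle samples for 10 members (27.0%) and below them for 7 (18.9%), where the shares over all tested genes were 22.9% and 10.1%. In bortezomib plus FeAc against bortezomib 0 members were above and 4 (10.8%) below in both samples, where the shares over all genes were 8.82% and 13%. For DNAJB1, FeAc gave a log2 fold change of 0.23 without bortezomib and -0.12 with it (standard error 0.50 each), and for DNAJA1 -0.11 and -0.08 (standard error 0.22 each). Each standard error pools the spread of all 8 samples. For DNAJB1 the samples with both compounds lay furthest apart (3506 and 1021 TPM). Without bortezomib its values were close, at 61.8 and 61.5 TPM with FeAc against 55.3 and 49.98 TPM with vehicle. Without 1 sample, the FeAc difference of DNAJB1 with bortezomib ran from -1.01 to 0.76. In the cytosol, the smallest p was that of DNAJB2 without bortezomib (0.28, adjusted p = 0.951) and of DNAJC17 with it (0.32, adjusted p = 1), by limma.

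**Figure D5:**
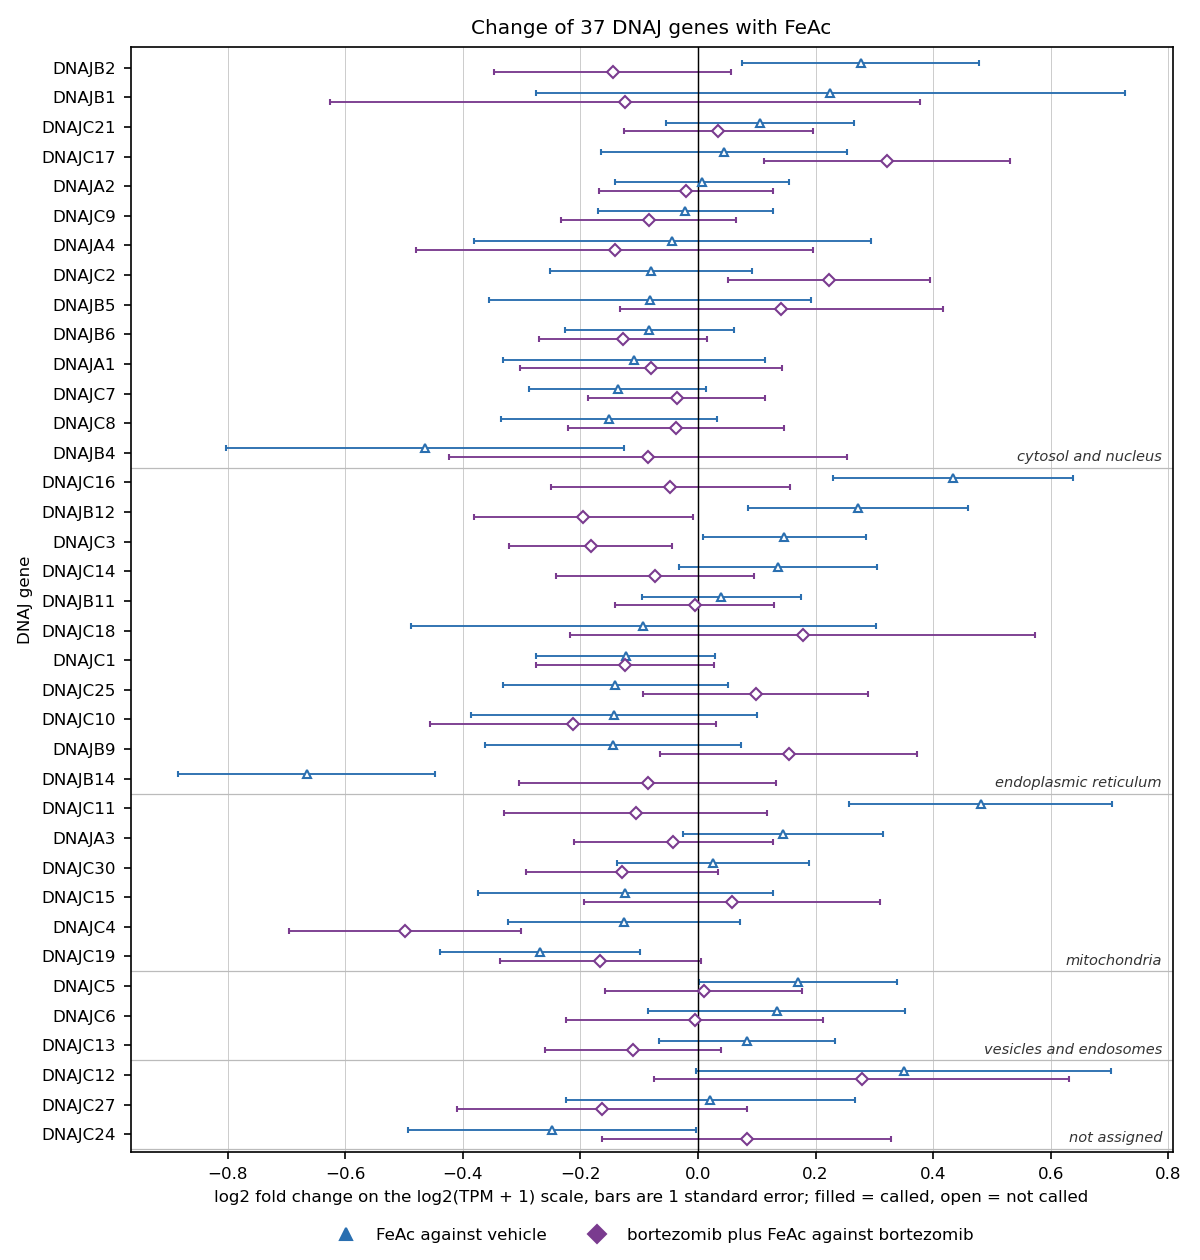
Log2 fold changes of the 37 tested genes with FeAc against vehicle (triangles) and with bortezomib plus FeAc against bortezomib (diamonds), on the log2(TPM + 1) scale with 1 standard error. All symbols are open, since 0 members were called, and the lowest value is that of DNAJB14 with FeAc against vehicle, at -0.67.

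Genes of HSP70, the partner of the family, were measured beside it. Of 13 tested HSP70 and HSP110 genes, 9 were called higher with bortezomib against vehicle and 8 in bortezomib plus FeAc against FeAc, with 0 lower in either (limma), where 6.27% and 4.94% of all tested genes were called higher. HSPA8, the constitutive HSC70 of the cytosol, was 2017 and 1301 TPM with vehicle and 15064 and 14463 TPM with bortezomib (log2 fold change 3.19, standard error 0.34, adjusted p = 0.00287). HSPA1B, an inducible HSP70, was 50.1 and 43.8 TPM with vehicle and 9422 and 6312 TPM with bortezomib (7.33, standard error 0.42), and its near-identical copy HSPA1A shares reads with it, so the level of each is uncertain. HSPA5, the BiP of the ER, rose by a log2 fold change of 1.56 and HSPA9, of the mitochondria, by 0.90, while most DNAJ genes of those compartments were not called. HSPA6, a strictly inducible HSP70, was 0 TPM in each vehicle library against 80.96 and 32.5 TPM with bortezomib, and its 150.3 and 2.73 TPM with both compounds followed the order described for DNAJB1.

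Of 13 tested nucleotide exchange factors and HSP70 tail binders, 3 were called higher in each bortezomib comparison by limma: BAG3 (log2 fold change 4.67 and 4.53), which links HSP70 to selective autophagy, and the adaptors ST13 (1.87 and 1.53) and STIP1 (1.43 and 1.13). Over all tested genes, 6.27% and 4.94% were called higher and 5.89% and 8.86% lower in these comparisons, which is the background for each list here. Of 4 tested J proteins with other symbols, 0 were called by limma. Of 8 tested regulators, DDIT3, the ER stress factor CHOP, was called higher in both (2.20 and 2.32), ATF4 higher in bortezomib against vehicle (0.80), and XBP1 lower in both (-0.69 and -0.74). In the FeAc comparisons 0 of these partner and regulator genes were called by limma.

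Promoter letters were read from RefSeq (GRCh38.p14), which gave a window of 250 bases before the start for 39 of the 43 members. The window stood within 300 bases of the main start in GENCODE release 29 for 31 of the 39. It was 10851 bases from the main start of DNAJB1 and 25679 bases from that of DNAJB4, so the main promoters of these 2 genes were not searched. The windows of DNAJB5, DNAJB9, DNAJB12, DNAJB13, DNAJC9 and DNAJC15 lay 306 to 1607 bases from their main starts, inside the annotated genes. Their main promoters were not searched either. GAANNTTC or TTCNNGAA, each its own reverse complement and hence the same on both strands, occurred in 4 of 39 member windows and in 11.7% of 27305 windows overall. The heat shock element of 3 alternating units, GAA, TTC and GAA or the reverse, each separated by 2 bases, occurred in 1 of 39 and 0.439% of all, and each such element also holds both shorter forms. Of the 10 members called higher with bortezomib against vehicle, 8 had a window near their main start, and among these DNAJA1 and DNAJB6 held the shorter form and DNAJB6 the longer. A match is a description of letters and not a site of binding.

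The stretches with these matches are shown with the matched letters in capitals. That of DNAJB6 runs over chr7:157336774-157336965 on the plus strand and ends 38 bases before the start in RefSeq. It holds no annotated exon in GENCODE release 29 and lies in an intron of 1 longer DNAJB6 transcript. That of DNAJA1 is 30 bases at chr9:33025064-33025093 on the plus strand, where exons of the neighbouring gene APTX are annotated on the opposite strand.
DNAJB6: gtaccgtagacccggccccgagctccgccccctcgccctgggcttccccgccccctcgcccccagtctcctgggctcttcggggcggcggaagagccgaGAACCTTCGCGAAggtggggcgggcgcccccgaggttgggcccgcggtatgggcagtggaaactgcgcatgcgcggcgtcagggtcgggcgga
DNAJA1: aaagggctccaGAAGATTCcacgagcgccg

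The CCAAT box occurred on either strand in 16 of 39 member windows and in 33.04% of all. TGACGTGG, the core of the element bound by XBP1, occurred on either strand in 1 of 39, that of DNAJC10, and in 0.667% of all. The ER stress element, a CCAAT box and CCACG separated by 9 bases, occurred in 0 of 39 and in 0.081% of all. The window of DNAJB9 counted here does not cover its main promoter. DNAJC10, with the only match to TGACGTGG among the members, was called lower in both bortezomib comparisons.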

How the data were processed

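Expression was measured by RNA sequencing in 8 samples of MM.1S cells, in 4 groups of 2 (2 biological replicates, per the supplementary methods), with groups taken from the sample labels. The authors deposited TPM values per gene in 2 tables, 1 without and 1 with bortezomib. The headers name no unit, and TPM was read from the sums of the sample columns. The tables also hold the authors' group means, fold changes and p-values, which were not used. Tools listed in the submitters' processing notes are RSEM, StringTie, HISAT2, edgeR and DESeq2, with build GRCh38.p13; their versions are not given there. Positions and coding sequences came from GENCODE release 29 and promoters from RefSeq (GRCh38.p14). The tables were joined by gene identifier, since they list the same 60671 genes and their totals agree within 1%.

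Genes with a group mean of at least 1 TPM were fitted with limma-trend (limma 3.58.1, R 4.3.3) on log2(TPM + 1), with all 8 samples in 1 fit and Benjamini-Hochberg adjustment over 14812 genes. P-values measure the spread between 2 samples a group. The fit was tested on simulated data. Alternatives were a pseudocount of 0.1, other filters, scalings and variance models, a replicate block and leaving out each sample. The members, compartment lists and partner lists were chosen with earlier results of these data known. Named genes are DNAJB1, DNAJA1, DNAJB9, every called member, the 2 most abundant and the smallest p per compartment, HSPA1A, HSPA1B, HSPA8, HSPA5 and HSPA9, and up to 4 others per partner list.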

Additional observations from a re-analysis of the deposited data

How the results depend on the processing

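In the comparisons where a member was called, its log2 fold change kept its sign under every alternative. Differences that were not called could change sign, as that of DNAJB1 with FeAc added to bortezomib did. Members called higher or lower with bortezomib against vehicle (10 and 2) were 6 and 0 without a filter on low values, 9 and 1 with median-of-ratios scaling, 8 and 1 without a variance trend and 8 and 1 without mitochondrially encoded genes. With bortezomib plus FeAc against FeAc (9 and 3) they were 8 and 1 without a filter, 9 and 1 with median-of-ratios scaling, 9 and 1 without a variance trend, and 3 and 0 with only the 4 samples compared. With only the 4 samples compared, bortezomib against vehicle kept 11 of its 12 called members. Over all tested genes, 1004 were then called higher and 1109 lower, beside 928 and 872 in the main fit. The cause of these differences was not tested.

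Leaving out 1 sample gave between 1 and 9 called higher and between 0 and 2 called lower with bortezomib against vehicle, and between 0 and 9 and between 0 and 2 with bortezomib plus FeAc against FeAc. Without bortezomib replicate 1 only DNAJB2 was called (1 of 10), without bortezomib replicate 2 there were 3, without either vehicle sample 5, and without FeAc replicates 1 and 2 there were 6 and 5. In the other comparison there were 0 without either FeAc sample, and 5 higher and 0 lower without bortezomib plus FeAc replicate 1 or without either bortezomib sample. DNAJB1 ranged from 4.94 to 5.60 and from 4.03 to 5.81 in log2 fold change (adjusted p from 0.002821 to 0.06303 and from 0.002805 to 0.07595 by limma). The lone sample of a group is assumed to vary like the others. Calls over all tested genes also fell in both comparisons when 1 sample of vehicle, FeAc or bortezomib alone was left out. The FeAc comparisons and the interaction called 0 members in every alternative.

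Median-of-ratios scaling moved the median of all genes by 0.06 and 0.17 in the bortezomib comparisons. Calls over all genes were then higher in 56.8% and 57.3%, beside 51.6% and 35.8%. Replicate numbers did not pair the samples (correlations of deviations from -0.15 to 0.19). The replicate block called 9 and 2 members, and 8 and 3, losing DNAJC2 and DNAJC6. A crossed pairing of vehicle with FeAc, chosen after seeing the data, called 0 members.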
